A study of Homo sapiens with 4 samples.

Results

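PTPMT1 and 9 other genes of cardiolipin synthesis, lipid transfer and remodelling were followed in the cell line NOMO-1 after hairpins against the transcription factor ZFX. NOMO-1 was derived from human acute myeloid leukaemia and has features of monocytes. The genes were chosen by name: each had to carry the single symbol PTPMT1, PGS1, CRLS1, TAMM41, TAFAZZIN, LCLAT1, PNPLA8, PRELID1, TRIAP1 or HADHA in the platform annotation, and the probe set of highest mean log2 intensity would have stood for a gene with several. All 10 were found, with 1 probe set each, among 18417 genes on the array, and all 10 lay above the limit on dim genes and were among the 12892 tested.

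RNA from transduced cells was hybridised to 4 expression arrays. The knock-down group (genotype label ZFX knock-down) held 1 array of cells with the lentiviral hairpin ZFX-SH3 and 1 of cells with ZFX-SH1. The control group (ZFX wild type) held 1 array of cells with a scrambled hairpin (SCR) and 1 of cells with a GFP lentivirus (LEN-GFP). All cells had received lentivirus at a multiplicity of infection of 1, and RNA was taken 48 h after selection. No construct was repeated, and the labels do not state if cultures were separate. With both hairpins together, a gene's own spread is thus that between constructs and arrays within the groups, which may be partly technical. The limma p-values there also draw on the spread of all tested genes (2.95 prior against 2 residual degrees of freedom). For ZFX-SH3 or ZFX-SH1 alone, and for the hairpins against each other, a gene's own spread comes from LEN-GFP and SCR only. No spread between or within the hairpins enters those p-values. PTPMT1 has been linked to ZFX in leukaemia, and the question was whether it and the genes around it differed on either hairpin.

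Cardiolipin is the signature phospholipid of the inner mitochondrial membrane, where it holds respiratory complexes and shapes the folds called cristae. PRELID1, bound to TRIAP1, carries phosphatidic acid across the intermembrane space. TAMM41 activates it to CDP-diacylglycerol, PGS1 joins that to glycerol 3-phosphate, PTPMT1 removes the phosphate to give phosphatidylglycerol, and CRLS1 makes cardiolipin. TAFAZZIN, LCLAT1 and a form of the beta-oxidation enzyme HADHA exchange or add acyl chains, and PNPLA8 cuts them off.

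Of the group, PTPMT1 and TRIAP1 had the 2 lowest SH3 differences from the controls. Windows around the transcription starts of 4 members are shown. They belong to 1 of these 2 genes or hold the letters AGGCCT, a core of the sequence that ZFX is known to bind. Each runs from 250 bases before to 50 bases after the start, in the direction of the gene, from RefSeq on GRCh38.p14, and capitals mark AGGCCT.
PTPMT1, chr11:47565349-47565648, plus strand: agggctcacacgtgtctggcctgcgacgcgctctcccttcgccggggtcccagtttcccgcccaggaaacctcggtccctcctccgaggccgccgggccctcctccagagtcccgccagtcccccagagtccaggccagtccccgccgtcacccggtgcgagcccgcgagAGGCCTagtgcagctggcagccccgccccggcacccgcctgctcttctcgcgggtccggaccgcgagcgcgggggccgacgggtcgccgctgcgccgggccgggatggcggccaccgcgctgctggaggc
LCLAT1, chr2:30446996-30447295, plus strand: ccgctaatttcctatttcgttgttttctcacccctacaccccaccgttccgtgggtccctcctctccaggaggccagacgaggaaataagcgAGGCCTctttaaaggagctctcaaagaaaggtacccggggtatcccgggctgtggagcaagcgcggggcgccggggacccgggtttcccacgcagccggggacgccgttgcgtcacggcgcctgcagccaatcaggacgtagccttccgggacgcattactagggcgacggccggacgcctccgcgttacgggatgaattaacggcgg
PNPLA8, chr7:108526086-108526385, minus strand: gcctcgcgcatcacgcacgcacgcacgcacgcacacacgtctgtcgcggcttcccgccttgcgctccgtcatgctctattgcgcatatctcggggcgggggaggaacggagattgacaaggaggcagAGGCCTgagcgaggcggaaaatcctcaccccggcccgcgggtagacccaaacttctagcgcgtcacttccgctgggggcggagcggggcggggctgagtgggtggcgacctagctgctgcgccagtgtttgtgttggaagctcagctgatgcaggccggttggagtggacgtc
TRIAP1, chr12:120446335-120446634, minus strand: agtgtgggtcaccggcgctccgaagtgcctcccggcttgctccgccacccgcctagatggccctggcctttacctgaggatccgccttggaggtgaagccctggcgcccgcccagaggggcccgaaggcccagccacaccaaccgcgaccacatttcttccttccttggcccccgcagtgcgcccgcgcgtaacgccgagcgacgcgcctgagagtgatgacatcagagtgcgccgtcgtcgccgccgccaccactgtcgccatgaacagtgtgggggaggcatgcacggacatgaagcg
AGGCCT, which reads the same on both strands, began 80 bases before the start of PTPMT1, 158 bases before that of LCLAT1 and 123 bases before this start of PNPLA8, and was not in the TRIAP1 window. The RefSeq table matched 9 of the 10 members, all but TAFAZZIN, with 2 windows for PNPLA8. AGGCCT occurred in 3 of these 10 windows and in 10.9% of all 35116 windows of the same length. On either strand, the E-box CACGTG was in those of PTPMT1 and PRELID1 (7.26% of all windows), the ETS core CCGGAAG in those of LCLAT1 and PRELID1 (10.3%), and GGGCGG in 7 of the 10 (45.0%). These matches are letters in a window and say nothing about binding in these cells.

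Values are deposited linear intensities turned to log2, and differences are on that log2 scale. Median intensities ranged from 184.8 to 189.8. ZFX, the targeted gene, had log2 intensities of 10.12 on SH3 and 10.13 on SH1, against 10.65 on LEN-GFP and 10.66 on SCR. It stood at 68.9% of its control level on SH3 and at 69.7% on SH1, differences of -0.54 and -0.52. With both hairpins together the difference was -0.53 (SE 0.10, limma unadjusted p = 0.00386), which did not pass (adjusted p = 0.797). SH3 differed from the controls on far more genes than SH1. Set against both controls, 1719 genes (13.3%) passed an adjusted p of 0.05 on SH3 and 52 (0.403%) on SH1, and the 2 hairpins together gave 0 in limma (0.0%), with 779 genes at an unadjusted p under 0.05. The SH1 count depended on the fit, with 20 genes when dim genes were kept and 4 with no intensity trend. Of the myeloid markers, LYZ, CD68, MPO and PTPRC were bright, between 11.66 and 14.37 on the 4 arrays, and 9 of 10 listed markers were measured. CD14 was dim, between 7.27 and 7.62. MPO, the granule peroxidase of myeloid precursors, fell by 1.02 on SH3 (adjusted p = 0.000248), and CSF1R, the receptor of monocytes, rose by 0.96 on SH1 (adjusted p = 0.0355, and 0.072 when dim genes were kept). Of 16 markers of T, B, erythroid, epithelial and fibroblast cells, 14 were measured, between 5.06 and 8.33, with summed log2 levels of 90.5 on SH3 and 90.0 on SH1, against 88.9 on LEN-GFP and 90.4 on SCR. No value marks a gene as detected, so a dim gene cannot be told from an absent one. In each of these comparisons the other 8 measured myeloid markers did not pass, and their differences lay between -0.13 and 0.37 on SH3 and between -0.27 and 0.06 on SH1. The summed log2 level of the 9 was 102.4 on SH3 and 102.9 on SH1, against 102.8 on LEN-GFP and 102.0 on SCR. The part of the MPO and CSF1R shifts in the results on the cardiolipin genes was not tested.

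PTPMT1 was lowest on SH3 and close to the controls on SH1. Its log2 intensity was 9.68 on SH3 and 10.04 on SH1, against 10.05 on LEN-GFP and 10.07 on SCR. As linear intensity, that is 818 on SH3 and 1056 on SH1, against 1057 and 1077 on the controls. The SH3 array was low and the other 3 lay within a narrow band. The groups did not overlap, but only 0.001 separated SH1 from LEN-GFP on the log2 scale. The groups did not overlap for 37.2% of all tested genes.

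With both hairpins together PTPMT1 averaged 9.86 ± 0.26 in the knock-down group and 10.06 ± 0.02 in the controls (SD, n = 2 each). The difference of -0.20 (SE 0.16, 95% interval -0.61 to 0.21) did not pass in limma (adjusted p = 0.834). An exact permutation test over the arrays gave a two-sided p of 0.333, the smallest that 2 against 2 arrays allow. The value rested on SH3: the difference was -0.38 without SH1 and -0.01 without SH3. As in any bulk sample, fewer cells with the transcript and less transcript per cell cannot be told apart.

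Taken singly, SH3 held PTPMT1 at 76.7% of its control level, a difference of -0.38 (SE 0.13, 95% interval -0.67 to -0.10). That did not pass (limma adjusted p = 0.0827, unadjusted 0.0141), and 26.3% of all tested genes had an unadjusted p under 0.05 in this comparison. Of all tested genes, 9.6% had a lower SH3 difference than PTPMT1. SH1 held it at 99.0%, a difference of -0.01 (95% interval -0.30 to 0.27, adjusted p = 0.991). The hairpins themselves differed by -0.37, SH3 minus SH1 (95% interval -0.70 to -0.04), which did not pass either (adjusted p = 0.173, unadjusted 0.0323). ZFX mRNA was nearly the same on both, with SH3 minus SH1 at -0.02 (95% interval -0.32 to 0.29). In these single-array fits the hairpin array is assumed to vary like the control pair. The SE rests mostly on the spread that limma takes from all tested genes (7.85 prior against 1 residual degree of freedom). It is thus not a measure of the gene's own control pair alone.

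**Figure D1:**
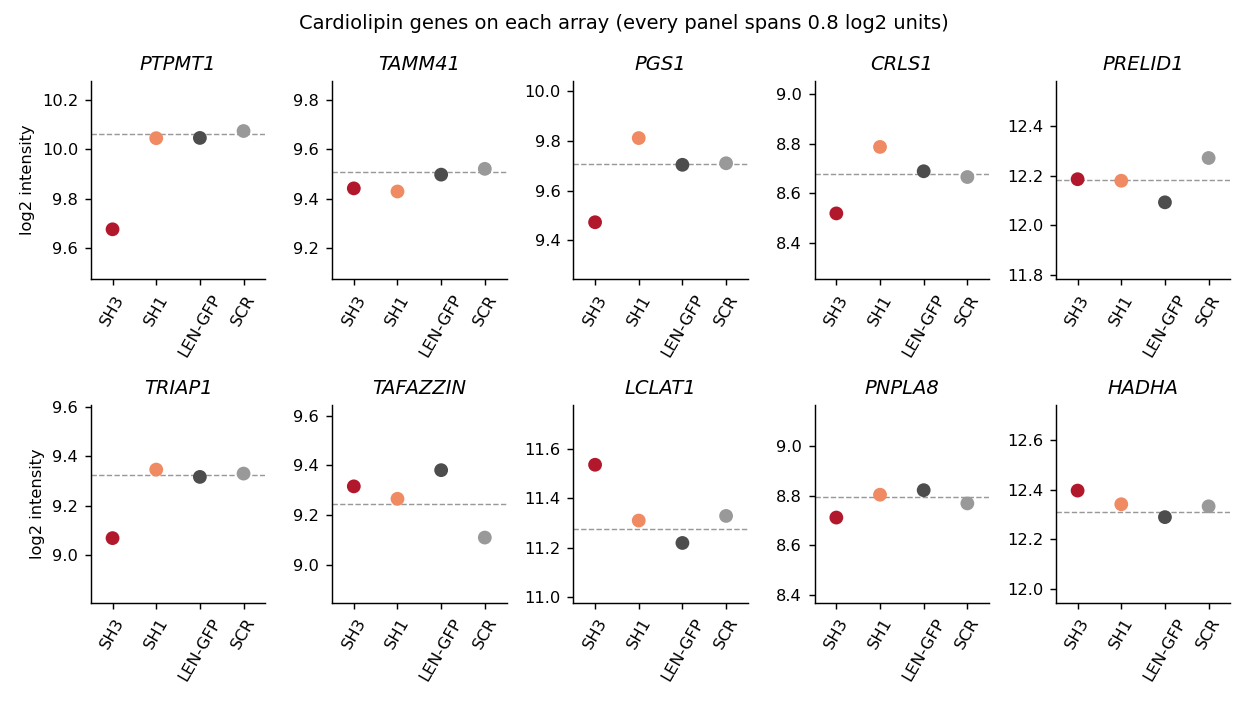
Log2 intensity of each of the 10 genes (vertical axis, every panel spanning 0.8 units) on the arrays SH3, SH1, LEN-GFP and SCR, with 1 point per array and a dashed line at the mean of both controls. SH3 stands low for PTPMT1 (9.68), PGS1 (9.47), CRLS1 (8.52) and TRIAP1 (9.07) and high for LCLAT1 (11.53), while TAFAZZIN and PRELID1 differ most between the 2 controls.

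The enzymes before and after PTPMT1 in the pathway did not pass in any comparison. TAMM41, the mitochondrial CDP-diacylglycerol synthase, had 9.44 on SH3 and 9.43 on SH1, against 9.50 on LEN-GFP and 9.52 on SCR. Both hairpins lay just below both controls, by at least 0.055, with a difference between the groups of -0.07 (SE 0.11, limma adjusted p = 0.906). PGS1, the phosphatidylglycerophosphate synthase whose product is the substrate of PTPMT1, had 9.47 on SH3 and 9.81 on SH1, against 9.70 on LEN-GFP and 9.71 on SCR. The hairpins lay on opposite sides of the controls, at -0.23 on SH3 (95% interval -0.53 to 0.06, adjusted p = 0.307) and 0.10 on SH1 (95% interval -0.19 to 0.40, adjusted p = 0.928).

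CRLS1, the cardiolipin synthase itself, was split in the same way. It had 8.52 on SH3 and 8.79 on SH1, against 8.69 on LEN-GFP and 8.67 on SCR. It stood at 89.6% of control on SH3 and 107.9% on SH1, and neither passed (limma adjusted p = 0.557 and 0.932). The hairpins differed, SH3 minus SH1, by -0.34 for PGS1 (adjusted p = 0.227) and by -0.27 for CRLS1 (adjusted p = 0.404), so the split was not shown for either gene.

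Of the transfer proteins, PRELID1 was level and TRIAP1 was low on SH3 alone. PRELID1, the lipid carrier, had 12.19 on SH3 and 12.18 on SH1, against 12.09 on LEN-GFP and 12.27 on SCR. Both hairpins fell between the controls, which differed from each other by 0.18, and the 95% interval of the SH3 difference ran from -0.23 to 0.23. RefSeq lists 7 pseudogenes named after PRELID1, 2 after HADHA and 1 after TRIAP1, and whether probes for these genes also take up such copies was not tested. TRIAP1, the partner that keeps PRELID1 in the intermembrane space, had 9.07 on SH3 and 9.35 on SH1, against 9.32 on LEN-GFP and 9.33 on SCR. SH3 stood apart and SH1 was just above both controls. The SH3 difference of TRIAP1 was -0.25 (SE 0.14, 95% interval -0.56 to 0.06, limma adjusted p = 0.292), 83.9% of control.

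The remodelling enzymes went both ways by small amounts. LCLAT1, an acyltransferase that adds chains back to lysocardiolipin, had 11.53 on SH3 and 11.31 on SH1, against 11.22 on LEN-GFP and 11.33 on SCR. LCLAT1 had the highest SH3 difference from the controls in the group, at 0.26 (SE 0.11, 95% interval 0.02 to 0.50), 119.8% of control. It did not pass the adjusted threshold. On SH1 it lay between the controls. TAFAZZIN, the transacylase mutated in Barth syndrome, had 9.32 on SH3 and 9.27 on SH1, against 9.38 on LEN-GFP and 9.11 on SCR. The 2 controls bracketed both hairpins, and their own difference of -0.27, SCR minus LEN-GFP, was larger than the SH3 difference of 0.07 (95% interval -0.29 to 0.43). Its sign depended on the controls: without SCR the difference between the groups was -0.09, and without LEN-GFP it was 0.18.

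PNPLA8, the mitochondrial phospholipase, had 8.71 on SH3 and 8.80 on SH1, against 8.82 on LEN-GFP and 8.77 on SCR. SH3 was the lowest array, at 94.4% of control (95% interval of the log2 difference -0.41 to 0.24). HADHA, the alpha subunit of the trifunctional protein, had 12.40 on SH3 and 12.34 on SH1, against 12.29 on LEN-GFP and 12.33 on SCR. Both hairpins lay above both controls, by a gap of at least 0.0084, and the difference of 0.06 between the groups had an SE of 0.08 (limma adjusted p = 0.897).

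**Figure D2:**
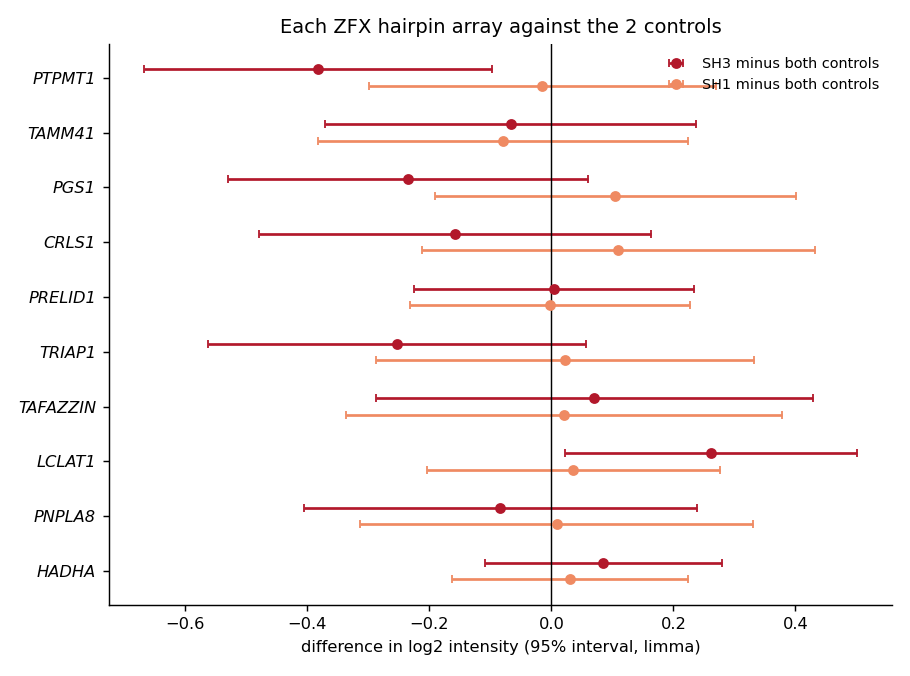
Difference in log2 intensity between each hairpin array and the mean of both controls (horizontal axis) for the 10 genes, with 95% intervals from limma, SH3 above SH1 in each row. The SH3 interval leaves out 0 for PTPMT1 (-0.67 to -0.10) and LCLAT1 (0.02 to 0.50), unadjusted for the number of genes, and every SH1 interval holds 0.

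Counted over the group, 0 of 10 members passed on SH3, 0 on SH1 and 0 with both hairpins together, against 13.3%, 0.403% and 0.0% of all tested genes. At an unadjusted p under 0.05 there were 2 of 10 on SH3 (PTPMT1 and LCLAT1, in opposite directions), near the 26.3% of all tested genes. With both hairpins together there were 0 of 10, against 6.04% of all tested genes. The median difference was -0.08 on SH3 and 0.02 on SH1, and over all tested genes it was -0.0015 and -0.00062. The median size of the difference, whatever its sign, was 0.12 on SH3 and 0.03 on SH1, where all tested genes had 0.16 and 0.10. The controls also lay close together on these genes, with a median size of SCR minus LEN-GFP of 0.04, and of 0.11 over all tested genes. The groups did not overlap for 3 of 10 members (PTPMT1 and TAMM41 lower, HADHA higher), near the 37.2% of all tested genes.

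The array SH3 lay farther from the controls than SH1 for 9 of 10 members, the exception being TAMM41, and for 64.0% of all tested genes. Both hairpins were set against the same 2 control arrays, so their values are given side by side and no likeness between them is drawn. Between the hairpins, 0 of 10 members passed, against 8.49% of all tested genes.

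Nearby pathway steps were covered by 5 lists of 50 genes, of which 45 had a probe set of their own and 42 were tested. The lists were chosen with earlier results of these data known, so their counts are description and no test of a list. On SH3, 8 of the 42 passed, 2 higher and 6 lower, against 6.33% and 7.0% of all tested genes. On SH1 and with both hairpins together 0 passed. Their median difference on SH3 was -0.04. At the supply of phosphatidic acid and CDP-diacylglycerol, 2 of 9 tested genes passed on SH3, in opposite directions. GPAM, the glycerol 3-phosphate acyltransferase of the outer mitochondrial membrane, had 7.76 on SH3 and 8.18 on SH1, against 8.35 on LEN-GFP and 8.57 on SCR. It fell to 61.4% of control on SH3 (-0.70, SE 0.15, limma adjusted p = 0.0184). GPAT3, its counterpart in the endoplasmic reticulum, had 9.94 on SH3 and 9.12 on SH1, against 9.18 on LEN-GFP and 9.23 on SCR. It rose on SH3, where it was 0.74 above the controls (SE 0.14, adjusted p = 0.0089), and was at -0.09 on SH1.

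Among the other lipid transfer genes and the phosphatidylethanolamine enzyme PISD, 1 of 6 tested genes passed on SH3, near the 13.3% of all tested genes. VPS13A, a bridge-like lipid transporter at membrane contacts, had 6.93 on SH3 and 7.51 on SH1, against 7.71 on LEN-GFP and 7.63 on SCR. It fell by 0.74 on SH3 (SE 0.13, limma adjusted p = 0.00709). STARD7, which carries phosphatidylcholine to mitochondria, was above both controls on both hairpins, with 12.79 on SH3 and 12.96 on SH1, against 12.73 on LEN-GFP and 12.62 on SCR. Its difference of 0.20 between the groups did not pass (SE 0.09, adjusted p = 0.797).

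Of the other remodelling and turnover genes, 2 of 5 passed on SH3, against 13.3% of all tested genes, and both calls were lost when dim genes were kept. PLD6, a mitochondrial surface protein also called MitoPLD, reported to cut cardiolipin to phosphatidic acid, had 7.85 on SH3 and 8.22 on SH1, against 8.29 on LEN-GFP and 8.46 on SCR. It fell by 0.52 on SH3 (SE 0.15, limma adjusted p = 0.0491, and 0.0772 when dim genes were kept). LPIN1, which turns phosphatidic acid to diacylglycerol and is named after its values were seen, rose by 0.42 on SH3 (SE 0.11, adjusted p = 0.0449). Its adjusted p was 0.0701 when dim genes were kept and 0.0679 with no intensity trend. HADHB, the beta subunit that joins HADHA in the trifunctional protein, had 11.44 on SH3 and 11.50 on SH1, against 11.18 on LEN-GFP and 11.27 on SCR. Both hairpins were above both controls, by at least 0.18, and the difference of 0.25 (SE 0.10) did not pass (adjusted p = 0.797, unadjusted 0.0493).

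Of the genes that scaffold and shape the inner membrane, 14 of 18 tested were below the controls on SH3, with a median of -0.17, where 6488 of all 12892 tested genes were below and the median was -0.0015. Of the 18, 3 passed, all lower, against 7.0% of all tested genes that passed lower. On SH1, 11 of 18 were below, with a median of -0.07, and 0 passed. The groups did not overlap for 8 genes on the lower side and 2 on the higher side of the 18, against 19.0% and 18.2% of all tested genes. This list too was chosen with earlier results known, and SH3 is a single array, so a shift of the list as a whole was not tested. PHB1, the prohibitin whose rings organise membrane lipids, had 11.35 on SH3 and 12.16 on SH1, against 12.24 on LEN-GFP and 12.38 on SCR. It fell to 51.3% of control on SH3 (-0.96, SE 0.10, limma adjusted p = 0.000691) and was at -0.15 on SH1 (adjusted p = 0.753). IMMT, the core of the MICOS complex at cristae junctions, fell by 0.63 on SH3 (adjusted p = 0.00509) and was at 0.01 on SH1. OMA1, a stress-activated inner membrane protease, fell by 0.58 on SH3 (adjusted p = 0.0391), and lost its call with no filter on dim genes (0.0650). IMMT and OMA1 are named after their values were seen. DNAJC19, a partner of prohibitin, was below both controls on both hairpins, with 9.75 on SH3 and 9.90 on SH1, against 10.21 on LEN-GFP and 10.07 on SCR, and did not pass on SH3 (adjusted p = 0.0937). These are the values of the brighter of its 2 probe sets, and averaging both moved the difference between the groups to -0.19, against -0.31. Whether the brighter probe set reads DNAJC19 alone was not tested.

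**Figure D3:**
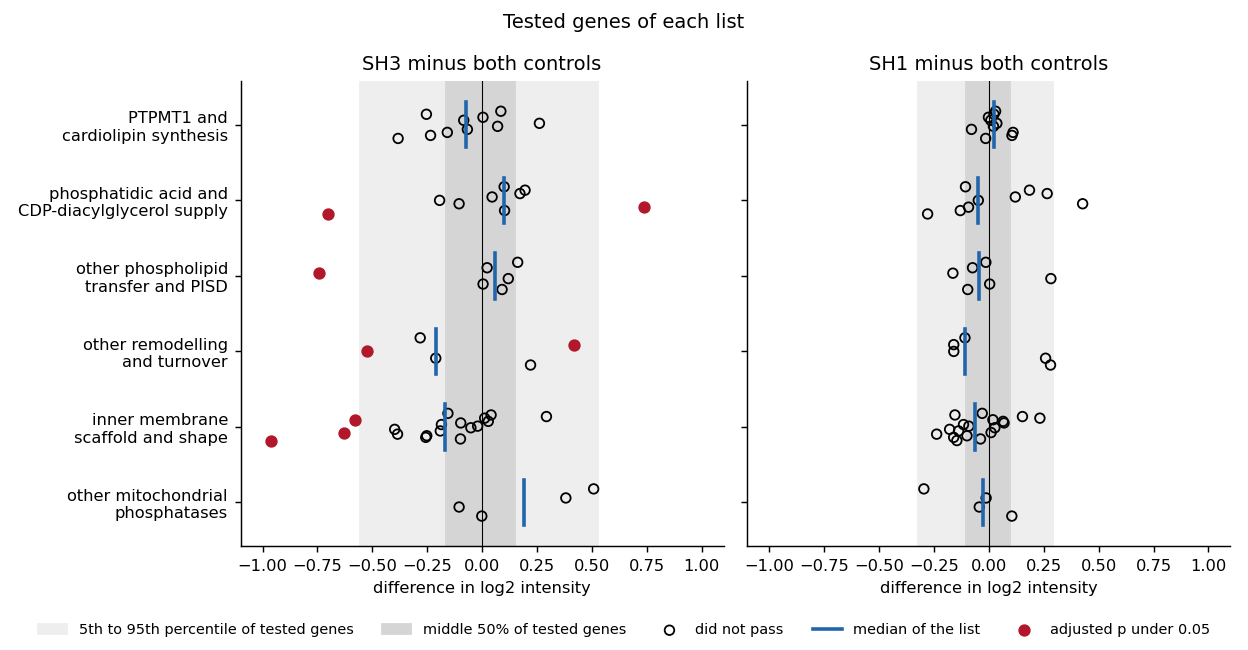
Difference in log2 intensity from both controls on SH3 (left) and SH1 (right) for each tested gene of the 6 lists, with blue bars at list medians and grey bands for the middle 50% and, wider, the 5th to the 95th percentile of all tested genes (-0.56 to 0.53 on SH3, -0.32 to 0.29 on SH1). All 10 cardiolipin genes lie inside the wider band in both panels, and the filled points, 8 genes past the threshold on SH3, belong to other lists.

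The genes most like PTPMT1 were found by the Euclidean distance between the 4 log2 values, each centred on its gene's mean, among all tested genes. The 5 nearest were ZNF551 (distance 0.014), TXNL4A (0.015), EIF3J (0.019), HS6ST1 (0.023) and TTC27 (0.023). On SH3 they were between -0.41 for TTC27 and -0.36 for HS6ST1. These values follow from how the genes were chosen and are given with no test. Within a distance of 0.1 there were 222 of the 12892 tested genes, and 4 arrays cannot order them firmly. Of the members, TRIAP1 came closest, at 0.11, followed by PGS1 at 0.14 and CRLS1 at 0.19, all outside that limit.

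**Figure D4:**
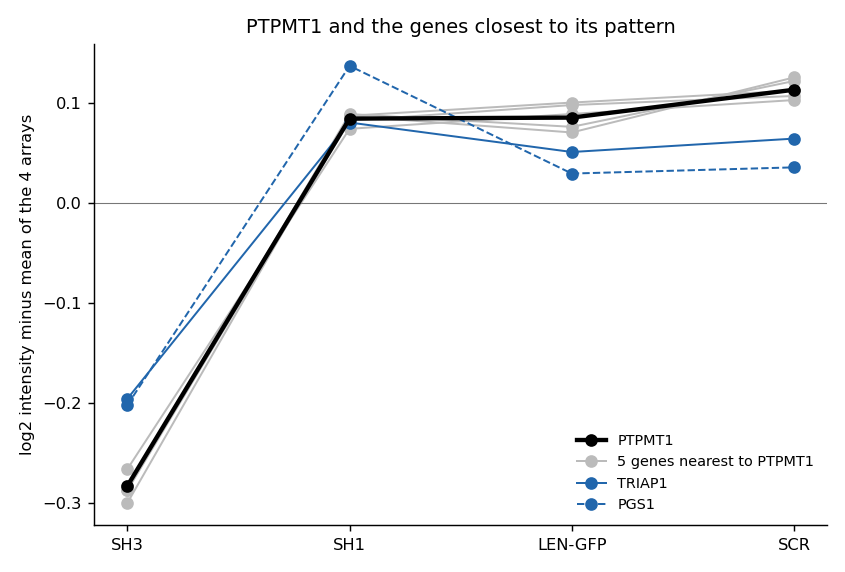
Log2 intensity minus the gene's mean over the 4 arrays (vertical axis) on SH3, SH1, LEN-GFP and SCR for PTPMT1 (black), its 5 nearest genes (grey), and TRIAP1 and PGS1, the 2 nearest members (blue). Every line is low on SH3, and PGS1 is highest on SH1.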

How the data were processed

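Per the submitters' processing notes, Affymetrix Expression Console 1.1 and RMA were used. The authors deposited 1 table with a linear intensity per array for 33297 probe sets, and how RMA values became linear is unstated here. RMA compresses differences of dim genes, and a change in total RNA is not visible after it. No depth or detection value comes with arrays, and 4 arrays limit the precision. They were log2-transformed without an offset. Probe sets were named by the platform annotation and RefSeq: 19460 had 1 gene symbol, 1754 several and 12083 none. The brightest probe set stood for each of 18417 genes, and the 30% with the lowest mean (under 6.70) were left out.

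limma 3.58.1 in R 4.3.3 compared the groups (intensity trend, two-sided, Benjamini-Hochberg over 12892 genes, threshold 0.05; 2 residual degrees of freedom). Each hairpin array was compared with both controls, and with the other hairpin, in a fit of 3 groups with 1 residual degree of freedom. The fits were run on simulated data in which both hairpins shifted alike. Only the mean estimated difference with both hairpins together was checked there, and the fits of single hairpins were not. Members, lists and tests were chosen with earlier results of these data known. Named were all members, ZFX, the 2 genes of largest difference in each other list and the 5 genes nearest to PTPMT1. MPO and CSF1R were named after their values were seen. Replicate numbers only name arrays. Alternatives were 2 other filters, an offset of 16, averaged probe sets, no trend, median centring and each array left out.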

Additional observations from a re-analysis of the deposited data

Results flagged for a closer look

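None of the 10 cardiolipin genes differed between the 2 hairpins past the threshold. Of the other 24 genes named, 8 did in the limma test of SH3 minus SH1, against 8.49% of all tested genes. Most of the 24 were named for the size of their difference or after their values were seen, so their count is no measure of how often the hairpins differed. PHB1 differed by -0.82 (SE 0.11, adjusted p = 0.00452), with 11.35 on SH3 and 12.16 on SH1. IMMT differed by -0.64 (SE 0.12, adjusted p = 0.0129), with 10.89 on SH3 and 11.53 on SH1. GPAT3 differed by 0.83 (SE 0.16, adjusted p = 0.0152), with 9.94 on SH3 and 9.12 on SH1. LPIN1 differed by 0.58 (SE 0.13, adjusted p = 0.0311), DUSP18 by 0.80 (SE 0.19, adjusted p = 0.0378) and VPS13A by -0.58 (SE 0.15, adjusted p = 0.0476). With no filter on dim genes these 3 were no longer called (adjusted p = 0.0527 for LPIN1, 0.0665 for DUSP18 and 0.0804 for VPS13A), nor were LPIN1 (0.0524) and VPS13A (0.0558) with no intensity trend. Of the myeloid markers, MPO differed by -0.99 (adjusted p = 0.000781) and CSF1R by -0.75 (adjusted p = 0.0272). Each hairpin is a single array here.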

How the results depend on the processing

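In no setting did any of the 10 members pass. With both hairpins, the count of genes past the threshold was 0 in all settings with 4 arrays and with either control left out, and ranged up to 1698 (from 0) with arrays left out: 1698 without SH1 and 54 without SH3. PTPMT1 ranged from -0.38 to -0.01 with arrays left out and stayed at -0.20 otherwise. ZFX ranged from -0.54 to -0.52 with arrays left out, and passed without SH1 (-0.54, adjusted p = 0.0181). Other genes changed sign when an array was left out, without SH3 unless another array is named. Their ranges were -0.23 to 0.10 for PGS1, -0.16 to 0.11 for CRLS1, -0.08 to 0.01 for PNPLA8, -0.25 to 0.02 for TRIAP1, -0.09 to 0.18 for TAFAZZIN (without SCR) and -0.09 to 0.09 for PRELID1 (without LEN-GFP or SH3). Those of other genes were -0.09 to 0.74 for GPAT3, -0.01 to 0.38 for PPTC7, -0.30 to 0.51 for DUSP18 (also without SCR), -0.08 to 0.43 for RAB24, -0.10 to 0.02 for GATC, -0.16 to 0.42 for LPIN1, -0.63 to 0.01 for IMMT and -0.58 to 0.02 for OMA1. PRELID1 also turned to -0.00094 with arrays centred on their medians. The SH1 count of 52 moved to 20 with no filter on dim genes and to 4 with no intensity trend, and the cause was not tested. CSF1R on SH1 (0.96) was no longer called in either setting (adjusted p = 0.072 and 0.0652). The SH3 count stayed between 1410 and 1719, and that between the hairpins between 794 and 1096. In the comparisons of single hairpins, leaving out a control leaves no residual degree of freedom and was not run. No paired analysis was possible because the labels link no hairpin array to a control array.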

Other observations

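Other phosphatases of mitochondria did not pass in the comparisons with the controls. Of 7 listed, 4 were tested, with medians of 0.19 on SH3 and -0.03 on SH1. PPTC7, a phosphatase tied to mitophagy, had 10.47 on SH3 and 10.08 on SH1, against 10.06 on LEN-GFP and 10.12 on SCR (limma adjusted p = 0.0771 on SH3). DUSP18 had 8.59 on SH3 and 7.79 on SH1, against 8.25 on LEN-GFP and 7.92 on SCR, so SH3 was above both controls and SH1 below both.

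In the RefSeq table, 4 members have a gene measured here that starts on the other strand within 1000 bases upstream, an arrangement looked up after the values were seen. CELF1, an RNA-binding protein whose start lies 60 bases from that of PTPMT1, had 11.45 on SH3 and 11.34 on SH1, against 11.37 on LEN-GFP and 11.20 on SCR. Its SH3 difference was 0.16 where that of PTPMT1 was -0.38, and neither passed (limma adjusted p = 0.432 and 0.0827). GATC, a subunit of a mitochondrial amidotransferase 60 bases from TRIAP1, was at -0.10 on SH3 and 0.02 on SH1, beside -0.25 and 0.02 for TRIAP1. RAB24, a small GTPase 80 bases from PRELID1, was at 0.43 on SH3 (adjusted p = 0.0628) and -0.08 on SH1, beside 0.0039 and -0.0024 for PRELID1. HADHB starts 307 bases from HADHA and was at 0.22 on SH3 and 0.28 on SH1, beside 0.09 and 0.03 for HADHA. Whether any of these pairs moved differently was not tested.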
